A study of Mus musculus with 4 samples.

Results

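To follow the normal course of leukocytes in injured skeletal muscle, the libraries of control mice taken 2 and 4 days after injury (dpi2 and dpi4) were compared with each other. Cardiotoxin, a snake venom toxin that destroys muscle fibres, had been injected into the tibialis anterior of the lower leg, and CD45+ cells (leukocytes) were enriched from the digested muscle with magnetic beads and profiled by 10x Genomics droplet sequencing of transcript 3' ends. The members are all cells of the control dpi2 and control dpi4 libraries with at least 500 detected genes and under 10% of their UMIs (unique molecular identifiers, each standing for 1 captured transcript) from mitochondrial genes. By this rule 10333 of the 17665 cells of the series were taken, 6010 from dpi2 and 4323 from dpi4. The labels give male mice of 8 to 12 weeks. The study's methods give the C57BL/6 background and describe the controls as Bach1 fl/fl littermates, so the controls carry loxP sites around part of *Bach1*, which encodes a heme-sensing repressor of transcription, but no Cre. The remaining cells, 3799 at dpi2 and 3533 at dpi4, come from Bach1 fl/fl Lyz2Cre mice (labelled KO), in which Cre is driven by the *Lyz2* promoter and acts in myeloid cells, and they serve here only for comparison. Each group is 1 library, so differences were given no test, and animal, dissection, library and day cannot be told apart.

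After toxin injury, neutrophils and Ly6C-high monocytes enter the muscle from the blood, take up debris and release cytokines and chemokines. Monocytes then turn into macrophages that lose Ly6C and the inflammatory program, clear dead fibres and secrete factors such as IGF1 and GDF15 that act on muscle stem cells and fibroblasts.

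Kept cells held 77978276 UMIs at dpi2 and 76417632 at dpi4, with medians of 10983 and 15311 UMIs and 2970 and 3584 genes per cell. More barcodes were left out at dpi4, where 83.0% were kept against 91.0% at dpi2, and 15.4% against 8.10% had 10% or more mitochondrial UMIs. In the kept cells mitochondrial transcripts took 3.26% of UMIs at dpi2 and 4.72% at dpi4, and the part of this difference in RNA quality in the results below was not tested. The libraries shared 9 barcodes, 8 of them kept in both. *Bach1*, which carries loxP sites but is not deleted in controls, stood at 189 CPM at dpi2 and 210.2 CPM at dpi4. Levels are given as CPM, the UMIs of a gene in 1000000 UMIs summed over the kept cells of a library, and fold changes are dpi4 over dpi2 with exact 95% intervals in parentheses. These intervals and all intervals on shares cover counting error only and say nothing of the spread between mice.

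The cells were clustered together and the clusters named from fixed markers. Most cells were mononuclear phagocytes, monocyte-like and macrophage-like clusters pooled because the genes that separate them change with time, and these made up 78.3% of cells at dpi2 and 74.0% at dpi4, a difference of -4.32 percentage points (-6.01 to -2.64). This share depends on the clustering, since at a Leiden resolution of 0.5 it was 32.9% at dpi4 with 49.4% of dpi4 cells unnamed, and at a resolution of 2 it was 58.5% with 16.8% unnamed. Neutrophil-like cells made up 12.1% at dpi2 and 3.03% at dpi4, 9.12 points fewer (interval of the difference -10.1 to -8.13). Dendritic cell-like cells stood at 5.54% and 8.998%, a difference of 3.46 points (2.42 to 4.51). T or NK cell-like cells stood at 1.90% and 2.22%, and the interval of their difference, -0.24 to 0.91 points, includes 0. Cells of clusters named muscle-like numbered 1 of 6010 at dpi2 (0.0166%) and 423 of 4323 at dpi4 (9.78%), and those of fibroblast- or endothelial-like clusters 21 (0.349%) and 74 (1.71%), although the cells had been enriched for CD45.

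The dpi4 muscle-like class was made of 2 clusters of different kinds. The larger, 313 cells from dpi4, was led by sarcomere genes such as *Mylpf* and *Acta1*, yet 98.7% of its cells had a UMI of *Ptprc*, which encodes CD45, 96.5% had one of *C1qa*, and its *Apoe* level was 33588 CPM against 245 CPM for *Mylpf*. By its markers this cluster therefore holds macrophage transcripts with a small addition of muscle transcripts, and its name goes against its content. The smaller, 110 dpi4 cells, held *Pax7*, the transcription factor of muscle stem cells, at 206 CPM and *Myf5* at 154 CPM, and 47.3% of its cells had a UMI of *Ptprc*. With the larger cluster counted as phagocytes, phagocytes were 81.2% of dpi4 cells, 2.92 points (1.34 to 4.49) above dpi2 in place of 4.32 below. The direction of the phagocyte share therefore rests on where these 313 cells are placed, whereas that of the neutrophil-like share does not.

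**Figure D1:**
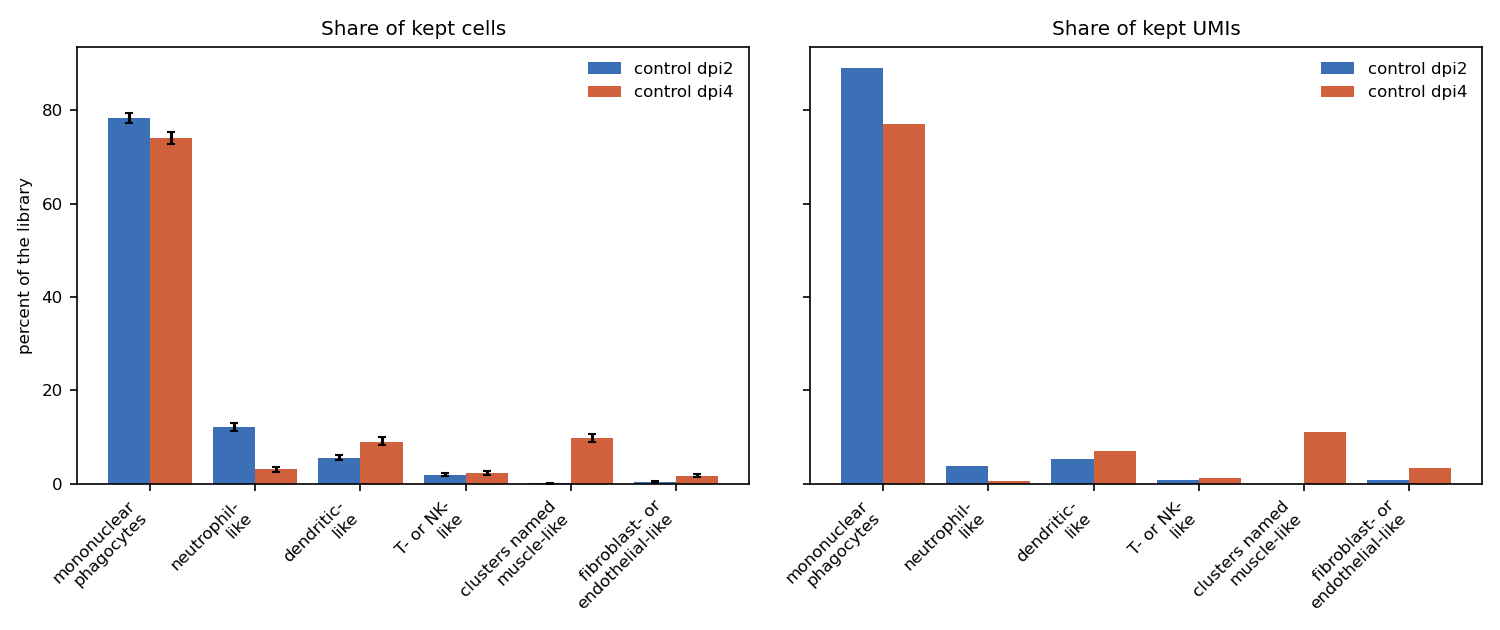
Percent of kept cells (left, with exact binomial 95% intervals as error bars) and percent of kept UMIs (right) in each cell class of the control dpi2 and dpi4 libraries, each bar 1 library. Neutrophil-like cells stand at 12.1% and 3.03%, and the muscle-like class, absent but for 1 cell at dpi2, holds 9.78% of dpi4 cells, 313 of these 423 cells being the cluster that holds macrophage transcripts.

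Across all kept cells, 13309 genes had at least 50 UMIs in the pair of libraries and were scored. A gene was called where its level differed at least 2-fold and the interval of the ratio left out 1. By this rule 2231 genes were higher at dpi4, 16.8% of those scored, and 603 were lower, 4.53%. The median log2 ratio over all scored genes was 0.08. Within mononuclear phagocytes alone 1315 of 12086 scored genes were higher (10.9%) and 724 lower (5.99%). In macrophage-like clusters 9.76% were higher and 6.02% lower. Counts of list members below are to be read beside these shares. Of the 2231 higher genes, 1184 were higher in phagocytes as well (53.1%), 4 were lower there and 846 had too few UMIs there to be scored. Of the 603 lower genes, 517 (85.7%) were also lower in phagocytes. Of the genes that could be scored in phagocytes, 85.5% of the higher (1184 of 1385) and 91.3% of the lower (517 of 566) went the same way there. Summed UMIs do not tell fewer cells of a kind from less RNA per cell, which bears on the lists below. Monocyte-like clusters held 38.3% of UMIs at dpi2 and 0.717% at dpi4, against 3.69% and 0.512% for neutrophil-like clusters. Monocyte-like clusters went from 44.9% to 1.20% of cells, and macrophage-like clusters from 33.4% to 72.8%. At a Leiden resolution of 0.5 the macrophage-like share at dpi4 was 31.5%, with 49.4% unnamed. These names rest on genes that change with time.

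**Figure D2:**
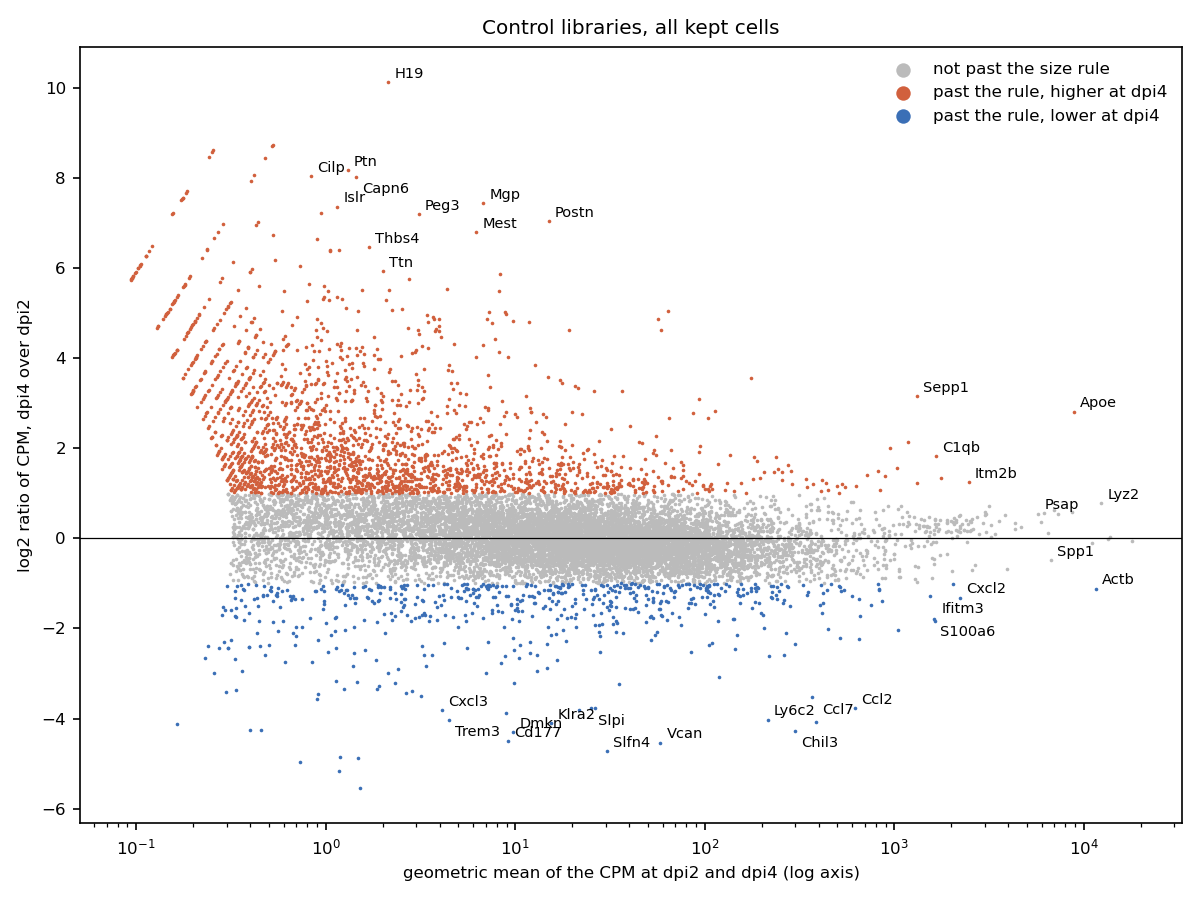
Log2 ratio of dpi4 over dpi2 (y axis) against the geometric mean of the CPM at both times (log x axis) in the control libraries, each point 1 scored gene, coloured where past the size rule. The 40 scored genes with no UMI at one of the times are not drawn. Among abundant genes Apoe lies far above and Ly6c2 and Ccl7 far below the bulk of genes, and over all levels the genes past the rule number 2231 higher and 603 lower, or 1281 and 513 with at least 200 UMIs in the pair.

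Genes of the classical monocyte were among those with the largest fold decreases. *Vcan* (chr13:89655312-89742509, minus strand, GRCm38), which encodes the matrix proteoglycan versican, stood at 281 CPM at dpi2 and 12.1 CPM at dpi4 and was 23.2-fold lower (21.7 to 24.8). *Ly6c2* (chr15:75108158-75111970, minus strand), the gene of the surface antigen that defines these monocytes, stood at 868 CPM at dpi2 and 53.4 CPM at dpi4, 16.2-fold lower (15.7 to 16.8). *Chil3*, which encodes a chitinase-like secreted protein, went from 1313 to 67.9 CPM (19.3-fold lower). *Slfn4*, an interferon-inducible gene of immature myeloid cells, had the largest fold decrease among the genes with at least 1000 UMIs that were ranked, from 157 to 5.97 CPM, 26.3-fold lower (23.9 to 28.9). Among the 12 largest falls were also *Cd177*, *Dmkn*, *Klra2*, *Trem3*, *Slpi*, a secreted protease inhibitor, and the chemokine genes *Ccl7* and *Cxcl3*. All 12 were also lower within phagocytes and within macrophage-like clusters, and between 76.0% and 97.9% of their dpi2 UMIs lay in phagocytes.

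Of the 15 recruited monocyte genes fixed as a list, 13 were lower, none was higher and the median log2 ratio was -2.60, against 0.08 over all genes. *Plac8*, a gene of circulating monocytes, went from 1249.7 to 109 CPM and *Thbs1*, which encodes the adhesive glycoprotein thrombospondin 1, from 1115 to 241 CPM. *Fn1*, which encodes fibronectin, was 3.16-fold lower (3.11 to 3.22) and *Ccr2*, the receptor through which monocytes leave the bone marrow, 2.33-fold lower (2.29 to 2.37). Both members that did not pass kept levels within 2-fold, namely *Msrb1* at 460.1 CPM at dpi2 and 334 CPM at dpi4 and *F13a1*, the coagulation factor XIII subunit of macrophages, at 369 CPM at dpi2 and 222 CPM at dpi4. Within phagocytes the median was -3.10. Within the clusters named macrophage-like at both times it was -1.29 with 9 members lower, so the change was smaller where monocyte-like clusters were left out. That restriction itself uses several of these genes to name clusters and leaves nothing to test.

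Neutrophil genes were lower together with the neutrophil-like share, 11 of 13 scored members lower and none higher, with a median of -2.47. The alarmin genes *S100a8* and *S100a9* went from 644 to 107 CPM and from 539 to 87.9 CPM. *Lcn2*, which encodes the iron-scavenging granule protein lipocalin 2, was 29.3-fold lower (19.0 to 47.6). *Csf3r*, the G-CSF receptor gene, stood at 65.7 CPM at dpi2 and 54.0 CPM at dpi4, within 2-fold. In phagocytes, where *S100a8* was 48.1 CPM at dpi2 and 27.2 CPM at dpi4, 6 of 11 scored members were lower. Among the genes that define neutrophils, *Ly6g* had 25 UMIs at dpi2 and none at dpi4, and *Ngp* had none at either time.

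Of 20 scored chemokine genes 3 were higher and 9 lower, with a median of -0.90. *Ccl2* (chr11:82035571-82037453, plus strand), the main CCR2 ligand, stood at 2279 CPM at dpi2 and 167 CPM at dpi4, 13.6-fold lower (13.4 to 13.9), and its neighbour *Ccl7* (chr11:82045712-82047525, plus strand) at 1579 CPM at dpi2 and 93.7 CPM at dpi4, 16.9-fold lower (16.5 to 17.3). *Ccl12*, another CCR2 ligand of the mouse, was 8.42-fold lower (8.12 to 8.74), whereas the related *Ccl8* stood at 179 CPM at dpi2 and 173 CPM at dpi4. The neutrophil attractants *Cxcl2* (from 3493 to 1405 CPM) and *Cxcl3* (from 15.4 to 1.10 CPM) were lower as well. With mitochondrial, ribosomal and predicted genes left out, *Cxcl2* was among the 6 largest losses in CPM. Higher were *Cxcl16* (from 104 to 343 CPM), *Cxcl9* (from 5.58 to 20.4 CPM), which draws T cells, and *Ccl22* (from 1.24 to 5.35 CPM), whose dpi4 UMIs lay to 89.0% in dendritic cell-like clusters. *Pf4* (1763 CPM at dpi2 and 938 CPM at dpi4) and *Ccl4* (1219 CPM at dpi2 and 660.3 CPM at dpi4), among the 4 with the most UMIs, stayed within 2-fold.

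Of 16 chemoattractant receptor genes 3 were higher and 8 lower, with a median of -0.66, and within macrophage-like clusters 4 were higher and 4 lower, with a median of -0.29. *Ccr1* went from 245 to 49.0 CPM and the C5a receptor *C5ar1* from 352 to 111 CPM. The formyl peptide receptor genes *Fpr1* and *Fpr2*, whose products sense bacterial and mitochondrial peptides, were 7.13-fold and 6.77-fold lower. In the other direction *Cx3cr1*, the fractalkine receptor gene carried by monocytes after they lose Ly6C and by macrophages, went from 71.4 to 258 CPM, 3.61-fold higher (3.51 to 3.72). *Cxcr3* went from 1.85 to 6.11 CPM and *Ccr7*, the receptor of dendritic cells on their way to lymph nodes, from 10.8 to 22.1 CPM. *C3ar1* (626 CPM at dpi2 and 581 CPM at dpi4), *Cxcr4* (294 CPM at dpi2 and 345 CPM at dpi4) and *Ccrl2* (315 CPM at dpi2 and 292 CPM at dpi4) differed by less than 2-fold.

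Of 15 scored inflammatory cytokines and enzymes 5 were lower and 1 was higher, with a median of -0.87. With each cell counted equally in place of each UMI, 10 were lower. *Ptgs2*, the inducible cyclooxygenase gene, went from 345 to 151 CPM, *Tnf* from 275 to 130.3 CPM and *Il6* from 13.4 to 4.78 CPM. *Il23a* and *Lif* had the largest falls, 6.50-fold and 5.43-fold. *Il1b* (1164 CPM at dpi2 and 635 CPM at dpi4) and *Il1rn* (235 CPM at dpi2 and 129 CPM at dpi4), which encodes the antagonist of the IL-1 receptor, did not pass. The gene that was higher, *Il12b*, the shared subunit of IL-12 and IL-23, had 7 UMIs at dpi2 and 455 at dpi4, of which 92.5% were in dendritic cell-like clusters. Within macrophage-like clusters alone the balance was different, with 2 higher, 1 lower and a median of 0.54, and there *Il1b* had a log2 ratio of 1.67.

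Genes of the type I interferon response were lower at dpi4 in 14 of 20 cases and higher in none, with a median log2 ratio of -1.18. *Isg15*, a ubiquitin-like modifier of proteins, stood at 557 CPM at dpi2 and 129 CPM at dpi4, 4.32-fold lower (4.23 to 4.42). *Rsad2*, which encodes the antiviral enzyme viperin, went from 475 to 168 CPM, the DNA sensor family genes *Ifi204* from 691 to 255 CPM and *Ifi205* from 114 to 23.8 CPM, and *Irf7*, a transcription factor that amplifies the response, from 332 to 159 CPM. *Gbp2* (49.9 CPM at dpi2 and 49.6 CPM at dpi4) and *Ifit2* (150.3 CPM at dpi2 and 111 CPM at dpi4) were within 2-fold. In phagocytes 12 were lower. Within macrophage-like clusters none was lower, 2 were higher and the median was -0.22. A cluster led by interferon genes was present at each time, with 308 of its 315 cells from dpi2 in one case and 331 of 335 from dpi4 in the other, and the first was monocyte-like and the second macrophage-like by their markers.

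The promoters of these genes were searched for a sequence element that was not used to choose the list. Interferon-stimulated genes are classically bound by the factor ISGF3 at the interferon-stimulated response element, and its core GAAANNGAA was searched on both strands from 250 bases before to 50 bases after each RefSeq gene start (GRCm38.p6). It was found in 9 of the 14 list genes that have such a window (64.3%), against 9.76% of 27025 genes and 8.56% of 32851 windows of the same length. Matches can overlap each other. Among genes of the list called lower, 5 of 9 held it, and among the others 4 of 5. Stretches of 60 bases around a match are given for 5 genes that were lower and for *Gbp2*, which was not, in the direction of transcription with the matched letters in capitals (TTCNNTTTC where the match is on the other strand).
Isg15, chr4:156200850-156200909, minus strand: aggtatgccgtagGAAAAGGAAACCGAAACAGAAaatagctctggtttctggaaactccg
Ifit1, chr19:34640780-34640839, plus strand: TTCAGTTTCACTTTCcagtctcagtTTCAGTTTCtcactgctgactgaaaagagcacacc
Ifit3, chr19:34583402-34583461, plus strand: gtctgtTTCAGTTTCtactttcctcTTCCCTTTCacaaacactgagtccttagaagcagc
Rsad2, chr12:26456537-26456596, minus strand: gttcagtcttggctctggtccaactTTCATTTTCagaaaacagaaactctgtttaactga
Ifi205, chr1:174031855-174031914, minus strand: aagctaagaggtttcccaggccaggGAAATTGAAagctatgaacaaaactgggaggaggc
Gbp2, chr3:142620580-142620639, plus strand: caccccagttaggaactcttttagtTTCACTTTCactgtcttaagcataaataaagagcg
The *Isg15*, *Ifit1* and *Ifit3* stretches hold 3, 3 and 2 matches, and the others 1. The match in the *Gbp2* stretch, whose gene did not change by 2-fold, begins 58 bases before the start.

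Cholesterol synthesis genes were lower as a group, 9 of 14 lower and none higher, with a median of -1.26. *Sqle*, the squalene epoxidase gene, went from 20.9 to 4.53 CPM, 4.62-fold lower (4.11 to 5.20), and *Idi1* from 56.9 to 13.4 CPM, 4.25-fold lower (3.97 to 4.55). *Srebf2*, the transcription factor that drives the pathway, went from 45.4 to 19.0 CPM. *Hmgcs1* (50.5 CPM at dpi2 and 33.6 CPM at dpi4) and *Insig1* (53.7 CPM at dpi2 and 29.5 CPM at dpi4) did not pass. Within macrophage-like clusters 1 member was lower and the median was -0.22, and in the libraries labelled KO 1 was lower with a median of -0.59. The sterol regulatory element letters TCACNCCAC occurred in the window of *Hmgcs1* among the 8 genes with a window, and in 1.44% of all genes.

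With mitochondrial, ribosomal and predicted genes left out, the largest gain in CPM was that of *Apoe* (chr7:19696109-19699188, minus strand, GRCm38), which encodes the lipoprotein component apolipoprotein E. It stood at 3349 CPM at dpi2 and 23504 CPM at dpi4, 7.02-fold higher (6.99 to 7.05). The other 5 of the 6 largest gains were *Lyz2* (from 9447 to 16175 CPM), the lysozyme gene of myeloid cells, *Sepp1* (from 442 to 3943 CPM), which encodes the selenium carrier selenoprotein P, *C1qb* (from 879.6 to 3133 CPM), *Itm2b* (from 1609 to 3803 CPM) and *Psap* (from 4751 to 6941 CPM), the precursor of the saposins that help to break down sphingolipids. Of these *Lyz2* and *Psap* did not reach 2-fold. The largest losses in CPM, beside *Ccl2* and *Cxcl2*, were *Actb*, which encodes cytoplasmic actin (from 17033 to 7861 CPM), *Spp1*, which encodes osteopontin (from 7934 to 5708 CPM, under 2-fold), *Ifitm3* (from 3107 to 866 CPM) and *S100a6* (from 3024 to 873 CPM).

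Macrophage identity genes were higher, 9 of 15, with 1 lower and a median of 1.08. The 3 subunits of C1q, the recognition molecule of the classical complement pathway that macrophages make, were higher together, *C1qa* from 566 to 2489.7 CPM, *C1qb* as above and *C1qc* from 478 to 1913 CPM, between 3.56-fold and 4.40-fold. *Ms4a7* was 2.82-fold higher (2.79 to 2.86), *Csf1r*, the receptor for the macrophage growth factor CSF1, 2.10-fold higher (2.07 to 2.14), and *Mertk*, a receptor for dying cells, 2.42-fold higher (2.34 to 2.52). The lineage markers *Cd68* (931 CPM at dpi2 and 821 CPM at dpi4), *Mrc1* (395 CPM at dpi2 and 323 CPM at dpi4) and *Maf* (566 CPM at dpi2 and 541 CPM at dpi4) stayed within 2-fold, and *Fcgr1* was 2.05-fold lower (2.01 to 2.09), a fall that did not reach 2-fold in phagocytes (log2 ratio -0.97), without muscle-like and stromal clusters, under a mitochondrial limit of 5% or with each cell counted equally. Within macrophage-like clusters 6 members were higher and none lower.

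Complement genes, which share the C1q genes with that list, were higher in 9 of 15 cases and lower in 2, with a median of 1.83. *Vsig4*, a receptor for C3b fragments on macrophages, had 1 UMI at dpi2 and 199 at dpi4. *Itgax*, the CD11c gene, went from 27.5 to 107 CPM, and *Serping1*, the C1 inhibitor gene, from 0.911 to 10.4 CPM. *C3* (from 69.9 to 16.6 CPM) and *C5ar1* were the members that were lower. Genes of tissue-resident macrophages showed no common direction, with 4 of 11 higher and 1 lower and a median of 0.46, and 3 higher and 3 lower within macrophage-like clusters. *Lyve1*, a hyaluronan receptor of resident macrophages, went from 16.0 to 3.23 CPM, *Folr2* stood at 137 CPM at dpi2 and 133 CPM at dpi4, and *Gas6*, a bridging ligand for MERTK and AXL, went from 71.3 to 153 CPM.

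Class II antigen presentation genes were higher at dpi4, with higher medians where only phagocytes were counted. Of 12 members 7 were higher and none lower over all kept cells (median 1.17), 9 in phagocytes (median 1.30) and 10 in macrophage-like clusters (median 2.07). *Cd74*, which encodes the invariant chain, went from 1116 to 2825 CPM over all cells and from 512 to 2102 CPM in phagocytes. *H2-Aa*, an alpha chain gene, went from 603 to 1790.1 CPM over all cells and from 225 to 1289 CPM in phagocytes, and *H2-Ab1*, the matching beta chain, from 553 to 1435 CPM over all cells. *Ciita*, the transcription factor that switches this set on, was 3.96-fold higher (3.56 to 4.42). *Ctss* (2477 CPM at dpi2 and 4089 CPM at dpi4), *Ifi30* (529 CPM at dpi2 and 672 CPM at dpi4) and *Cd86* (94.5 CPM at dpi2 and 98.6 CPM at dpi4) were within 2-fold. These genes are also used by dendritic cells, whose share went from 5.54% to 8.998%, and the values in phagocytes are those with dendritic cell-like clusters left out.

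**Figure D3:**
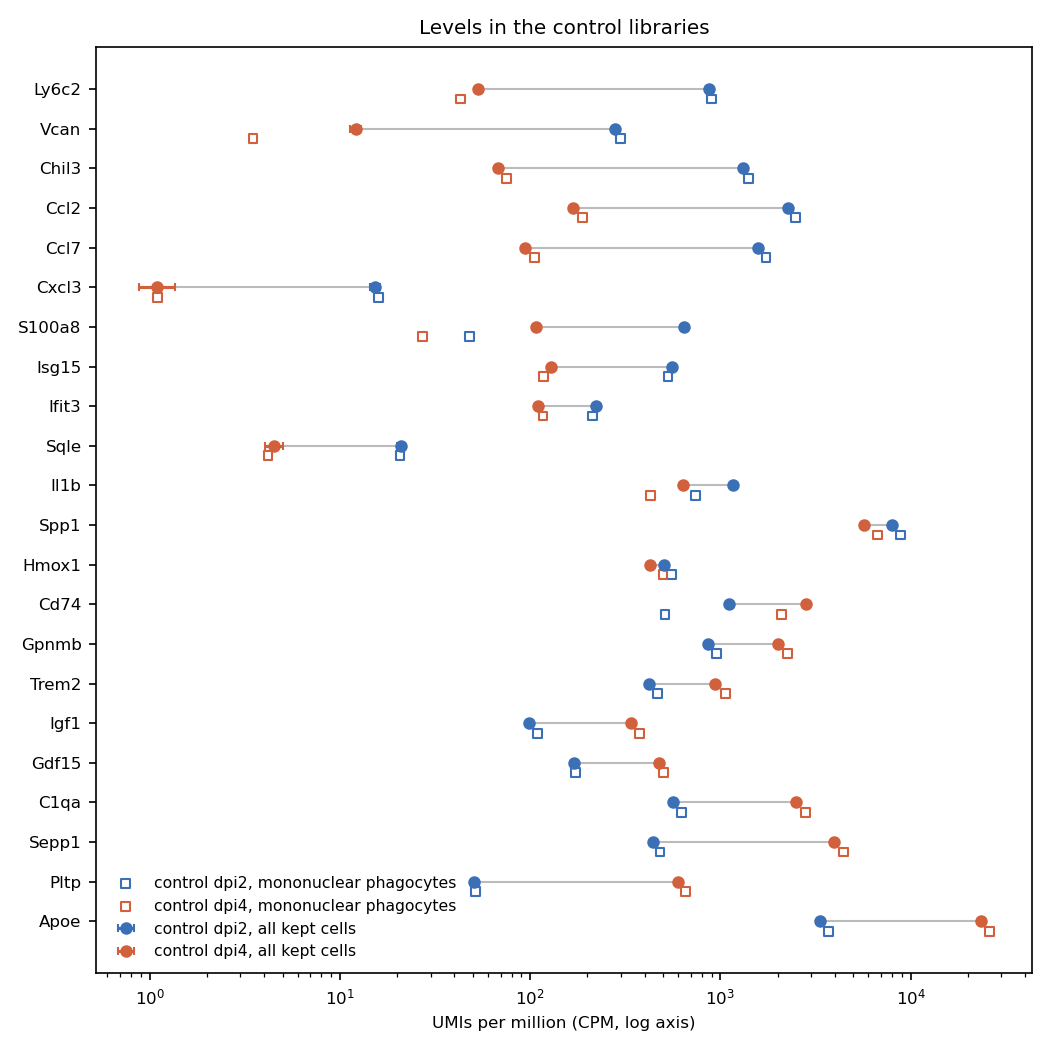
Level in CPM (log x axis) of selected genes at dpi2 and dpi4 in the control libraries, as filled points over all kept cells with exact Poisson 95% intervals and open squares over mononuclear phagocytes. The monocyte and chemokine genes are lower at dpi4 (Ly6c2 from 868 to 53.4 CPM over all cells), and the macrophage, repair and class II genes are higher (Apoe from 3349 to 23504 CPM).

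Among genes that phagocytes themselves carried, the 12 highest ratios were picked after the values were seen, from the 209 of 395 genes higher in phagocytes, with at least 1000 UMIs, whose dpi4 level there was not below that in muscle- and fibroblast- or endothelial-like clusters. They get values only. Among them were *Pltp*, which encodes the phospholipid transfer protein (from 51.6 to 654 CPM in phagocytes), *Cyp27a1*, the sterol 27-hydroxylase gene (from 5.38 to 40.1 CPM), and *Lpin1*, a phosphatidate phosphatase gene (from 6.90 to 47.3 CPM). *Trf* (from 42.2 to 334 CPM) encodes the iron carrier transferrin, *Hpgd* (from 11.7 to 120.0 CPM) the enzyme that inactivates prostaglandins, and *Ephx1* (from 0.950 to 23.3 CPM) an epoxide hydrolase. The rest were *Gpr34*, *Gpr155*, *Fxyd2*, *Sepp1*, *Ciita* and *Retnla*. *Retnla*, which encodes the secreted protein RELM alpha, is a case apart, since 73.0% of its dpi4 UMIs lay in dendritic cell-like clusters.

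Repair growth factor genes were higher in 9 of 18 cases and lower in 3, with a median of 0.85. In phagocytes 7 of 17 scored members were higher and 3 lower (median 0.65). Within macrophage-like clusters 5 of 17 were higher and 1 lower (median 0.66). *Igf1* (chr10:87858265-87937042, plus strand), which drives growth of muscle cells, stood at 98.1 CPM at dpi2 and 340.2 CPM at dpi4, 3.47-fold higher (3.38 to 3.56). *Gdf15*, a TGF-beta family factor of repair macrophages, went from 171 to 478 CPM, 2.80-fold higher (2.74 to 2.85). The platelet-derived growth factor genes *Pdgfa*, *Pdgfb* and *Pdgfc*, whose products act on fibroblasts and on vessel wall cells, were 2.36-fold, 4.13-fold and 3.17-fold higher. *Ogn* (from 0.641 to 29.9 CPM) and *Tgfb2* (from 0.308 to 2.63 CPM) had the highest ratios, and 96.5% and 93.0% of their dpi4 UMIs lay in muscle- and fibroblast- or endothelial-like clusters. Lower were *Gdf3* (from 5.87 to 1.86 CPM), *Areg* (from 10.4 to 5.10 CPM) and *Tgfbi* (from 809.6 to 366 CPM). *Grn* (1499.8 CPM at dpi2 and 1546 CPM at dpi4), *Tgfb1* (208 CPM at dpi2 and 286 CPM at dpi4) and *Vegfa* (33.3 CPM at dpi2 and 30.3 CPM at dpi4) were within 2-fold.

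Lipid handling genes were higher in 7 of 20 cases and lower in 2, with a median of 0.44. The cholesterol exporter genes *Abca1* (from 127 to 446 CPM) and *Abcg1* (2.34-fold) were higher, as was *Mylip* (from 64.6 to 147 CPM), an E3 ubiquitin ligase gene, and all 3 are known targets of the sterol-sensing LXR receptors. *Gpnmb* (from 861 to 2004 CPM) and *Trem2* (from 421 to 941 CPM), genes of lipid-laden macrophages, were 2.33-fold and 2.24-fold higher, and *Acp5*, an acid phosphatase gene, 6.35-fold higher (6.12 to 6.59). Lower were *Cd36*, a scavenger receptor for fatty acids and oxidised lipoproteins (from 661 to 299 CPM), and *Plin2*, the coat protein of lipid droplets (from 1235 to 553 CPM). *Lgals3* (4998 CPM at dpi2 and 3139.7 CPM at dpi4), *Fabp5* (3225 CPM at dpi2 and 3267 CPM at dpi4) and *Npc2* (1474 CPM at dpi2 and 1628 CPM at dpi4) were within 2-fold. Within macrophage-like clusters 4 members were higher and 4 lower.

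Lysosome genes had 3 of 21 higher, near the 16.8% over all scored genes, and none lower, with a median of 0.37. Within macrophage-like clusters 1 was higher and 2 lower, with a median of 0.12. Among the 3 were *Hexa* (from 348 to 800.3 CPM), the gene of a hexosaminidase subunit, and the beta-galactosidase gene *Glb1* (from 31.4 to 68.2 CPM), enzymes that trim sugars from glycolipids. The cathepsin genes *Ctsb* (5264 CPM at dpi2 and 6781 CPM at dpi4) and *Ctsd* (4276 CPM at dpi2 and 5118 CPM at dpi4) were within 2-fold. Of 17 efferocytosis genes, which serve the uptake of dying cells, 6 were higher and 1, *Cd36*, lower. *Mfge8*, a bridge between dying cells and integrins, was 5.60-fold higher (5.28 to 5.94) and the receptor gene *Axl* 3.24-fold higher (3.12 to 3.38), whereas *Lrp1* (419 CPM at dpi2 and 374 CPM at dpi4) and *Stab1* (291 CPM at dpi2 and 308 CPM at dpi4) were within 2-fold.

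Iron and heme genes, of interest because the controls are the reference for *Bach1*, were higher in 6 of 18 cases and lower in none, with a median of 0.47. *Slc40a1*, which encodes the iron exporter ferroportin, stood at 6.41 CPM at dpi2 and 66.3 CPM at dpi4, 10.3-fold higher (9.43 to 11.4). *Trf* went from 43.0 to 302 CPM, *Hebp1*, a heme-binding protein gene, from 29.2 to 106 CPM, and *Spic*, the transcription factor of iron-recycling macrophages, from 3.51 to 12.5 CPM. *Hmox1*, the heme oxygenase gene, stood at 505 CPM at dpi2 and 424 CPM at dpi4, and the ferritin genes *Fth1* (13567 CPM at dpi2 and 13910.1 CPM at dpi4) and *Ftl1* (13449 CPM at dpi2 and 13392 CPM at dpi4) differed little. Antioxidant genes were near their dpi2 level, with 2 of 18 higher, 1 lower and a median of -0.17. *Gpx3*, a secreted glutathione peroxidase, was 11.4-fold higher (10.3 to 12.6), *Cat* 2.08-fold higher (1.99 to 2.17) and the glutathione reductase gene *Gsr* 3.14-fold lower (3.01 to 3.27), while *Prdx1* (1321 CPM at dpi2 and 1141 CPM at dpi4), *Gpx1* (1237 CPM at dpi2 and 1211 CPM at dpi4), *Txn1* (631 CPM at dpi2 and 517 CPM at dpi4) and *Prdx5* (492 CPM at dpi2 and 336 CPM at dpi4) were within 2-fold.

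Matrix genes went in both directions, 8 of 19 higher and 6 lower, with a median of 0.04. *Col1a1* (from 10.5 to 306 CPM), *Col3a1* (from 11.8 to 291 CPM) and *Mmp2* (from 0.616 to 19.1 CPM) were higher, with 97.3%, 96.8% and 80.6% of dpi4 UMIs in muscle- and fibroblast- or endothelial-like clusters. *Mmp12*, the macrophage elastase gene, went from 64.0 to 128 CPM and *Mmp14*, a protease of the cell surface, from 43.8 to 134 CPM. *Mmp8* (from 41.3 to 10.6 CPM) and *Mmp9* (from 41.0 to 8.40 CPM), the collagenase and gelatinase genes of neutrophils, were lower, and *Mmp9* did not pass in phagocytes. *Adam8* went from 302 to 113 CPM. Of 14 coagulation and fibrinolysis genes 5 were lower and 1 higher, with a median of -0.74. *Serpinb2*, an inhibitor of plasminogen activators, was 35.7-fold lower (21.5 to 64.3), *F10*, which encodes factor X, 4.40-fold lower (4.19 to 4.62), *Plau*, the urokinase gene, 2.60-fold lower (2.49 to 2.72), and *Anxa2* 2.43-fold lower (2.39 to 2.46), while *Plaur* stood at 164 CPM at dpi2 and 95.8 CPM at dpi4.

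Markers often used to sort macrophages into activation states were pooled and went in both directions. They were not grouped by state, so the counts do not show whether markers of the same state moved together. Of 16 scored polarization enzymes and receptors 5 were higher and 5 lower, with a median of -0.16. *Retnla* (from 1.55 to 50.5 CPM), *Cd38* (from 7.55 to 52.4 CPM), *Socs3* (from 73.6 to 152 CPM) and the inhibitory Fc receptor gene *Fcgr2b* (from 142 to 415 CPM) were higher. Most *Retnla* UMIs at dpi4 lay in dendritic cell-like clusters, as given above. Among the lower members were *Chil3*, given above as the list's largest change on that side, and *Ass1*, the argininosuccinate synthase gene (from 17.8 to 5.18 CPM). *Nos2*, the inducible nitric oxide synthase gene, stayed under 1 CPM, at 0.321 CPM at dpi2 and 0.484 CPM at dpi4. Myeloid transcription factor genes mostly stayed within 2-fold, 1 of 26 higher and 1 lower, with a median of -0.04. *Cebpb*, a factor of inflammatory monocytes, was 2.79-fold lower (2.76 to 2.83) and *Batf3*, a factor of dendritic cells, 2.18-fold higher (2.02 to 2.36). Within macrophage-like clusters *Cebpb* did not pass, with a log2 ratio of -0.10, and 3 members were higher and none lower. *Zeb2* (793 CPM at dpi2 and 652 CPM at dpi4), *Klf6* (776 CPM at dpi2 and 589 CPM at dpi4) and *Irf8* (166 CPM at dpi2 and 318 CPM at dpi4) were within 2-fold.

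Most energy metabolism genes were within 2-fold. Glycolysis and hypoxia genes had a median of -0.32, with 2 of 22 lower and none higher, the 2 being the pyruvate kinase gene *Pkm* (from 749 to 356 CPM) and the lactate exporter gene *Slc16a3* (from 39.2 to 17.8 CPM). *Gapdh* (989 CPM at dpi2 and 818 CPM at dpi4) and *Ldha* (391 CPM at dpi2 and 283 CPM at dpi4) did not pass. Oxidative phosphorylation genes had a median of -0.25, with 1 of 22 lower, *Cycs*, the cytochrome c gene (from 252 to 93.0 CPM), and none higher, *Cox4i1* among them standing at 949 CPM at dpi2 and 1190.2 CPM at dpi4. Immediate early and heat shock genes, which also answer to tissue digestion, had 2 of 16 lower and none higher, the heat shock genes *Hspa1a* (from 98.3 to 33.3 CPM) and *Hspa1b* (from 59.2 to 13.2 CPM), with *Fos* at 2022 CPM at dpi2 and 2442 CPM at dpi4. Within macrophage-like clusters 3 of the immediate early and heat shock genes were lower and 4 higher. Of 17 pattern recognition and Fc receptor genes 6 were lower and 2 higher, with a median of -0.27, whereas within macrophage-like clusters 4 were lower and 5 higher, with a median of 0.66. The highest ratio was that of *Marco*, a scavenger receptor gene with 2 UMIs at dpi2 and 51 at dpi4, a 26.0-fold ratio (6.84 to 221), and *Fcgr2b* is given above. *Trem1*, which amplifies responses of neutrophils and monocytes, was 6.06-fold lower (5.45 to 6.75) and the scavenger receptor gene *Msr1* 3.99-fold lower (3.89 to 4.09), while *Cd14* stood at 493 CPM at dpi2 and 408 CPM at dpi4 and *Fcer1g* at 2506 CPM at dpi2 and 2364 CPM at dpi4.

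DNA replication and mitosis genes had a median of 0.42, with 2 of 23 higher, *Ccnb2* (from 7.54 to 17.6 CPM) and *Plk1* (from 3.65 to 7.69 CPM), and none lower. *Mki67* stood at 28.0 CPM at dpi2 and 51.3 CPM at dpi4, *Top2a* at 35.6 CPM at dpi2 and 47.7 CPM at dpi4, *Pcna* at 105 CPM at dpi2 and 74.6 CPM at dpi4 and *Stmn1* at 57.7 CPM at dpi2 and 105 CPM at dpi4. In macrophage-like clusters no member was higher and 4 genes of the replication licensing complex, *Mcm2*, *Mcm4*, *Mcm5* and *Mcm6*, were lower. A cluster led by mitosis genes such as *Birc5*, *Ccna2* and *Top2a* held 117 dpi2 and 115 dpi4 cells.

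**Figure D4:**
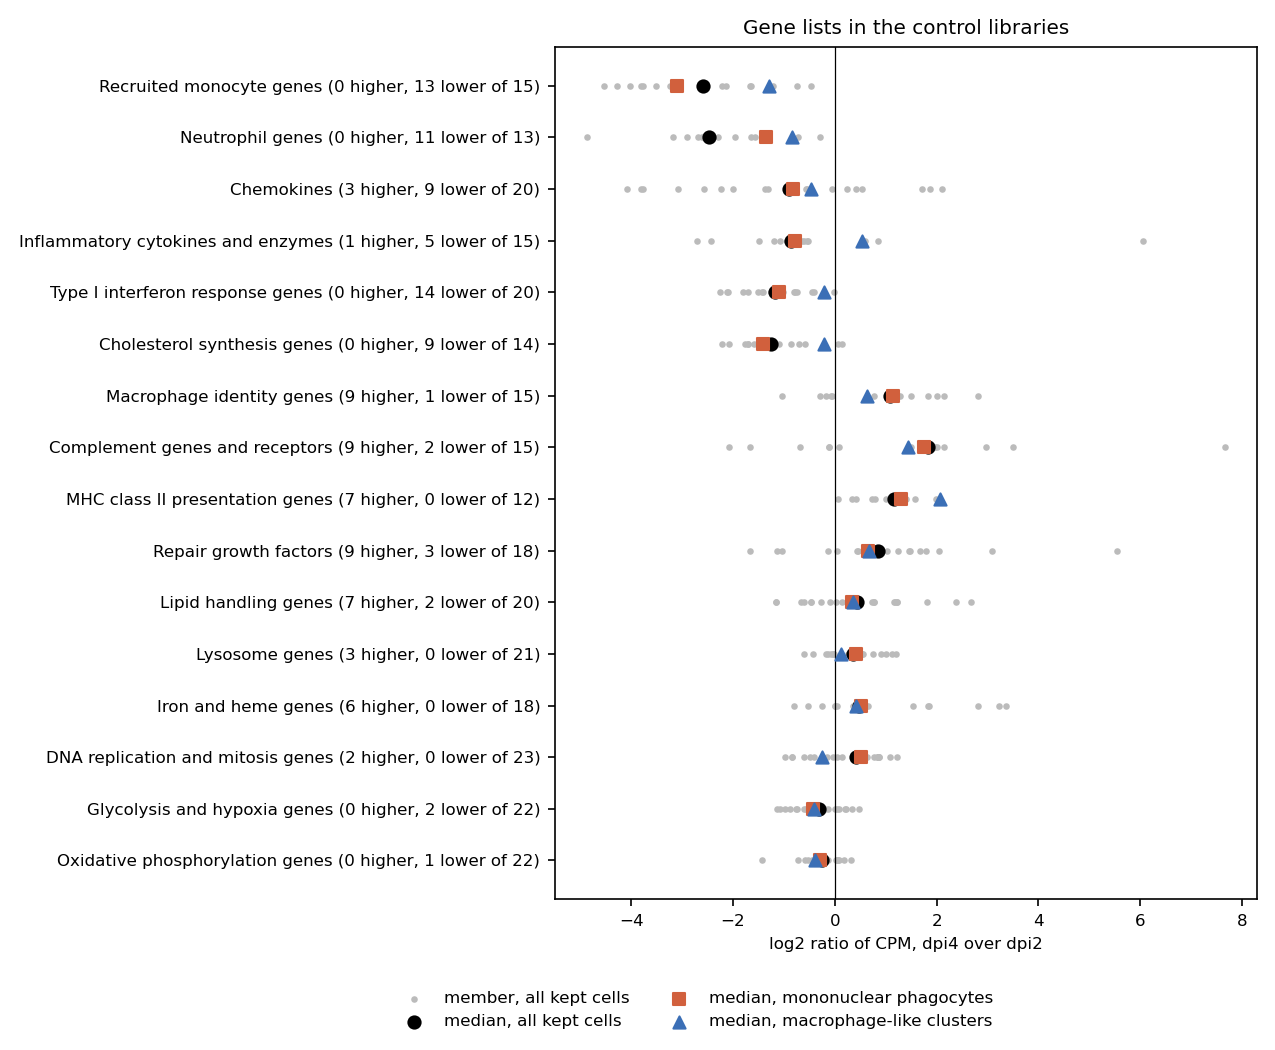
Log2 ratio of dpi4 over dpi2 (x axis) for 16 of the gene lists in the control libraries, with each member over all kept cells as a grey point and the list median over all kept cells, over mononuclear phagocytes and over macrophage-like clusters as a circle, square and triangle. Lists of monocyte, neutrophil, cholesterol synthesis and interferon genes lie furthest to the left (medians of -2.60, -2.47, -1.26 and -1.18 over all cells), and their medians in macrophage-like clusters lie nearer to 0.

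To compare detection at equal depth, each phagocyte was thinned to 2000 UMIs, which kept 4612 cells at dpi2 and 3114 at dpi4 and left out 95 and 85 shallower ones. The share of phagocytes with a *Ly6c2* UMI went from 54.2% to 5.04% and that with a *Vcan* UMI from 32.5% to 0.610%. *Chil3* went from 60.5% to 11.7%, *Ccl2* from 78.2% to 19.5% and *Ccl7* from 56.8% to 8.61%. In the other direction the share with *C1qa* went from 30.7% to 88.9%, with *Sepp1* from 44.2% to 92.6%, with *Trem2* from 41.1% to 80.7% and with *Apoe* from 79.2% to 99.7%. The repair factor genes *Igf1* (from 10.0% to 44.4%) and *Gdf15* (from 14.7% to 38.2%) and the class II gene *Cd74* (from 26.7% to 57.8%) were likewise detected in more cells. At a fixed depth such a share rises with the level per cell as well as with the number of cells that carry the gene, and the shares do not tell these apart. *Gpnmb* went from 34.5% to 66.0%. *Hmox1* went from 40.3% to 31.5%, *Il1b* from 36.4% to 29.8% and *Mki67* from 2.30% to 4.85%, smaller steps than those above. Without thinning the *Hmox1* and *Il1b* shares were 1.14 points (-0.69 to 2.96) and 0.34 points (-1.89 to 2.57) above those at dpi2, in place of below, and both intervals include 0. *Spp1* was found in more cells, from 70.1% to 80.5%, although its level in CPM was lower over all cells (under 2-fold).

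Droplets also catch free RNA, so the same shares were taken in T or NK cell-like cells, 112 at dpi2 and 90 at dpi4, as a reference for genes that lymphocytes do not use, such as *C1qa*. Their median depths before thinning were 4199.5 and 6283.5 UMIs, against 11988 and 16150 in phagocytes. Without thinning, *C1qa* was found in 47.0% of phagocytes at dpi2 and 96.5% at dpi4, *Ly6c2* in 78.2% and 15.1%, and *Gdf15* in 32.2% and 69.8%. After thinning, *Apoe* was found in 30.4% of T or NK cell-like cells at dpi2 and 85.6% at dpi4, under its share in phagocytes on both days (79.2% and 99.7%). *C1qa* was found in 6.25% and 22.2% of the T or NK cell-like cells. Other shares were also higher there at dpi4, *Sepp1* from 18.8% to 47.8%, *Cd74* from 8.04% to 24.4%, *Gpnmb* from 7.14% to 16.7%, *Trem2* from 7.14% to 14.4%, *Gdf15* from 0.893% to 8.89% and *Spp1* from 45.5% to 50%, each under the share in phagocytes on the same day. At dpi4 the shares of phagocytes with *Ly6c2*, *Isg15*, *Cxcl10*, *Mki67* or *Acta1* were at or below those of T or NK cell-like cells. Lymphocytes also use *Ly6c2*, *Isg15* and *Mki67* themselves, so for these genes the T or NK cell-like share is no measure of free RNA. *Isg15* went from 50.4% to 15.2% in phagocytes and from 19.6% to 23.3% in T or NK cell-like cells.

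**Figure D5:**
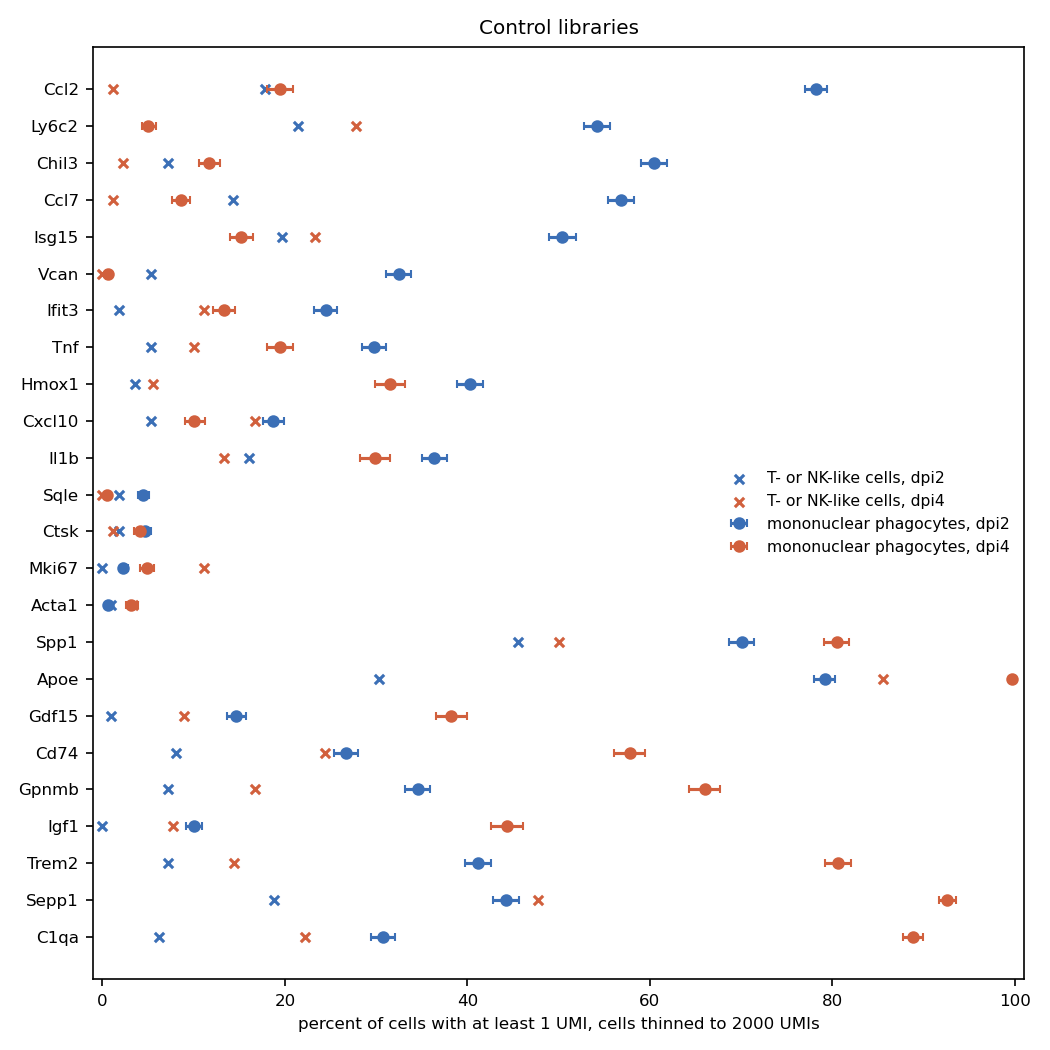
Share of mononuclear phagocytes (x axis, percent, points with exact binomial 95% intervals) with at least 1 UMI of each gene at dpi2 and dpi4 after thinning every cell to 2000 UMIs, with the share in T or NK cell-like cells as crosses. C1qa is found in 30.7% of phagocytes at dpi2 and 88.9% at dpi4, and Ly6c2 in 54.2% and 5.04%.

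Ranked were called genes with at least 1000 UMIs, with mitochondrial, ribosomal and predicted genes left out. Among them the 12 highest ratios over all cells belonged to genes counted mostly in muscle-like and stromal clusters. They were *C1qtnf3*, *H19*, *Ptn*, *Cilp*, *Capn6*, *Mgp*, *Islr*, *Peg3*, *Postn*, *Mest*, *Thbs4* and *Ttn*, and between 77.4% and 97.5% of their dpi4 UMIs lay in the muscle-like and the fibroblast- or endothelial-like clusters. With the muscle-like cluster of 313 cells that holds macrophage transcripts left out, these shares were between 60.3% (*Ttn*) and 97.2% (*Ptn*). *C1qtnf3* had no UMI at dpi2 and 1657 at dpi4, at least 564-fold higher when dpi2 is set at 3 counts over the group. *H19* (chr7:142575529-142578143, minus strand), a long noncoding RNA of growing muscle, had 5 and 5465 UMIs. *Postn*, which encodes periostin of fibroblasts, went from 1.31 to 172 CPM and *Ttn*, which encodes the giant sarcomere protein titin, from 0.256 to 15.7 CPM. In phagocytes 9 of the 12 were higher too, at low levels (*Postn* at 0.130 CPM at dpi2 and 6.89 CPM at dpi4), and 3 were not scored.

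Skeletal muscle fibre genes were spread over other clusters. At dpi4 44.7% of their summed UMIs lay in the cluster of 313 cells with macrophage transcripts, which held 8.09% of all UMIs, 34.9% lay in phagocytes, and 13.03% in the cluster with *Pax7*. Of 12 skeletal muscle fibre genes 11 were higher, with a median of 3.71, and their summed level went from 24.2 to 171 CPM. In phagocytes 7 of 10 scored members were higher and the sum went from 18.8 to 77.4 CPM. *Acta1*, skeletal actin, went from 1.97 to 34.5 CPM, *Mylpf* from 1.68 to 36.1 CPM and *Des*, desmin, from 0.372 to 20.2 CPM, while *Tnni2* stood at 15.2 CPM at dpi2 and 24.0 CPM at dpi4. All 9 scored myogenic progenitor genes were higher, with a median of 6.72 and a summed level of 4.01 CPM at dpi2 and 65.6 at dpi4. *Pax7* and *Myog*, markers of stem cells and of differentiating myoblasts, had no UMI at dpi2 and 495 and 311 at dpi4. Of 11 fibroblast and endothelial genes 8 were higher, with *Col1a2* from 11.2 to 369.6 CPM and the endothelial genes *Cdh5* (10.6 CPM at dpi2 and 19.9 CPM at dpi4) and *Kdr* (15.9 CPM at dpi2 and 11.3 CPM at dpi4) within 2-fold. The part of muscle and stromal transcripts from other cells in the phagocyte values was not tested.

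Lymphocyte genes mostly stayed within 2-fold, as most scored genes did. Of 15 T and NK cell genes 2 were higher and none lower, with a median of 0.05. *Il7r* (172 CPM at dpi2 and 115 CPM at dpi4), *Klrd1* (34.8 CPM at dpi2 and 35.5 CPM at dpi4), *Gzma* (30.7 CPM at dpi2 and 20.2 CPM at dpi4) and *Nkg7* (11.4 CPM at dpi2 and 11.4 CPM at dpi4) were within 2-fold. *Cd4* went from 0.654 to 18.3 CPM, with 79.2% of its dpi4 UMIs in phagocytes, and *Cd8a* from 0.321 to 1.43 CPM. Of 5 scored B and plasma cell genes 3 were higher and 1 lower, and without muscle-like and stromal clusters 2 were higher and 1 lower, since *Ebf1* (from 3.27 to 11.0 CPM) had a log2 ratio of -0.48 there. *Jchain*, which joins secreted antibodies, had 2 UMIs at dpi2 and 680 at dpi4, a 347-fold ratio (95.7 to 2871), and 99.6% of the dpi4 UMIs were in cells of phagocyte clusters, while *Cd79a* of B cells went from 1.91 to 0.864 CPM. Of 12 dendritic cell genes 6 were higher and 1 lower, with a median of 0.99. *Xcr1* (from 1.14 to 4.96 CPM) and *Clec9a* (from 1.62 to 3.69 CPM), which mark cross-presenting dendritic cells, and *Siglech* (from 2.22 to 9.15 CPM) of plasmacytoid cells were higher, and *Cd209a* stood at 38.1 CPM at dpi2 and 31.3 CPM at dpi4. Neither scored gene of mast cells, basophils and eosinophils passed (*Kit* at 2.42 CPM at dpi2 and 4.28 CPM at dpi4), and the mast cell gene *Cpa3* was near 0 at both times. Of 4 scored red cell and platelet genes *Hbb-bs* was higher, at 0.180 CPM at dpi2 and 0.680 CPM at dpi4, and *Ppbp* lower, from 8.91 to 1.49 CPM.

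Restricting the comparison to macrophage-like clusters, 1154 of 11824 genes were higher (9.76%) and 712 lower (6.02%). Of the genes higher over all cells 851 were also higher there, and of those lower 311. Among the genes named above, *Ptgs2*, *Il6*, *Areg*, *Gsr*, *C3*, *Slc16a3*, *Ifit3* and *Cxcl10*, all lower over all cells, had log2 ratios above 0 there, between 0.03 for *Slc16a3* and 1.01 for *Cxcl10*. These clusters were named from markers that change with time and the leading clusters differ between the times. Clusters 1, 2, 3, 5 and 8 held 83.7% of dpi2 phagocytes and clusters 0, 6, 9, 11 and 14 held 90.0% of those at dpi4. The comparison within them is therefore between different cell states as well as between days.

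In the libraries labelled KO, which share no cells or libraries with the control pair, 2071 of 12779 scored genes were higher at dpi4 (16.2%) and 626 lower (4.9%). Of the 2231 genes higher in controls 1502 were higher there (67.3%) and 6 lower, and of the 603 lower in controls 330 were lower there (54.7%) and 3 higher. Too few UMIs to be scored there were found for 348 of the 2231 and 28 of the 603. Of the genes scored there, 79.8% of the higher (1502 of 1883) and 57.4% of the lower (330 of 575) went the same way. The 12 highest and the 12 lowest of the ranked genes of the controls all passed the rule in the same direction. The recruited monocyte list had 14 members lower in the KO pair against 13 in controls, while cytokines had 12 lower against 5 (10 in controls with each cell counted equally), the interferon list 2 lower and 2 higher against 14 lower (median 0.04), and class II genes 2 higher against 7. DNA replication and mitosis genes had 13 of their members higher in the KO pair, with a median of 1.21, against 2 in controls. Neutrophil genes moved with the cytokines there, with 14 of 14 scored members lower and a summed level of 5317 CPM at dpi2 and 158 CPM at dpi4, against 1470 and 298 CPM in controls. Each pair is 1 library a day, so whether the courses differ between genotypes was not tested.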

How the data were processed

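The libraries were 10x Genomics single-cell 3' libraries of CD45+ cells from mouse tibialis anterior. The authors aligned reads to mm10 and counted UMIs with Cell Ranger 6.1.2 per the labels, and deposited raw counts per gene and barcode, unnormalized, for barcodes with at least 500 UMIs. Their later filters and integration were not used here.

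Cells with at least 500 genes and under 10% mitochondrial UMIs were kept. Counts were summed per library and scaled to 1000000 (CPM). Ratios have exact conditional binomial 95% intervals, levels exact Poisson intervals, shares of cells Clopper-Pearson intervals, and their differences Newcombe intervals from exact limits. With 1 library per group no test was run, and cells were not used as replicates. A gene was called at a fold of at least 2 with an interval leaving out 1 and at least 50 UMIs in the pair. A side at 0 was set at 3 counts for bounds. The steps were tested on simulated data. Cells of the control libraries were clustered with scanpy 1.11.5 (2000 variable genes, 30 components, 15 neighbours, Leiden resolution 1) and named from fixed markers, with macrophage- and monocyte-like clusters pooled as phagocytes. Scrublet scores above 0.5 were found in 2 dpi2 cells and 0 dpi4 cells, which is too few to have worked, so doublets were kept, and the 289 and 150 cells with the highest scores were left out as an alternative. TMM factors came from edgeR 4.0.16, used for scaling only.

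Genes named are the 12 highest and 12 lowest ratios among called genes with at least 1000 UMIs, the 6 largest gains and losses in CPM (mitochondrial, ribosomal and predicted genes left out), and members of 34 lists, first those with the most UMIs and then those with the largest ratios. The members and lists were chosen with earlier results of these data known. *Itgam*, *Cebpd*, *Clec7a*, *Trac* and *Ighm* could not be matched to a single row and were left out, and some members of the lists are not reported here by name. Gene positions come from GENCODE M21 and promoters from RefSeq, both on GRCm38.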

Additional observations from a re-analysis of the deposited data

Results flagged for a closer look

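The median log2 ratio of the tissue-resident macrophage genes was 0.46 in the control pair and -0.67 in the pair labelled KO, and this was flagged because the same contrast took opposite directions in the 2 genotypes. The direction in controls depends on the cells kept, since the control median was -0.033 under a mitochondrial limit of 5% (2 members higher and 3 lower), -0.30 in macrophage-like clusters and 0.045 in phagocytes. With 1 library per group the difference was not tested. In controls 4 of 11 scored members were higher and 1 lower, and in the pair labelled KO 3 of 12 were higher and 6 lower.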

How the results depend on the processing

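No paired analysis was possible because each group is 1 library and the labels give no replicate numbers; for the same reason no replicate could be left out and the spread between mice is not known. Of the 234 called genes that are members of the lists or were picked by the naming rule, all 234 kept their direction with TMM factors, with the highest doublet scores left out, over all deposited barcodes and with each cell counted equally, as did 230 of 230 under a mitochondrial limit of 5% and 215 of 215 in phagocytes plus the cluster led by muscle fibre genes (set after seeing the data, as were the settings on macrophage-like clusters, on leaving out muscle-like and stromal clusters, and on clustering without the genes of the lists). TMM moved all ratios by -0.12 (log2), so it could not reverse a gene called at 2-fold. The kept directions under TMM are therefore no support. With TMM factors 1991 genes were higher and 777 lower, and 7 macrophage identity genes were higher in place of 9. All deposited barcodes added few UMIs, since kept cells held 98.4% at dpi2 and 95.25% at dpi4. Genes past the rule numbered 2834, against 1866 in macrophage-like clusters only, 5045 at 1.5-fold and 1794 with at least 200 UMIs. Genes that were higher numbered 1315 in phagocytes, 1323 without muscle-like and fibroblast- or endothelial-like clusters, 1154 in macrophage-like clusters, 1404 in phagocytes plus the muscle fibre cluster, 3411 at 1.5-fold and 1281 with at least 200 UMIs, and 1634 genes were lower at 1.5-fold. Log2 ratios changed sign in macrophage-like clusters for *Ptgs2* (0.38), *Cyp51* (0.028), *Il6* (0.83), *Areg* (0.32), *Cxcl10* (1.01), *Isg20* (0.020), *Gsr* (0.16), *Slc16a3* (0.028), *C3* (0.71) and *Ifit3* (0.081), in phagocytes for *Mmp9* (0.042), and without muscle-like and stromal clusters for *Ebf1* (-0.48). The phagocyte share differed by -45.1 points at resolution 0.5, -19.5 at resolution 2, -18.2 when clustered without the genes of the lists, -19.2 with separate clustering of each library and 2.92 with the muscle fibre cluster counted in. The neutrophil-like share differed by -10.5 points at resolution 0.5, -7.47 without the genes of the lists and -7.94 without the highest doublet scores. The muscle-like share differed by 2.53 points at resolution 0.5, 5.53 without the genes of the lists, 4.30 with each library clustered by itself, 10.8 without the highest doublet scores and 7.72 with cells of at least 200 genes. Without thinning, the share of phagocytes with a UMI differed by 0.34 points for *Il1b* and 1.14 points for *Hmox1*, in place of a lower share at dpi4. Where the setting keeps other cells or another limit, that is the change made, and further causes were not tested.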
